A study of Mus musculus with 96 samples.

Results

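Basement membrane components were followed as 10 genes, chosen by symbol: *Col4a1*, *Col4a2*, *Col15a1*, *Col18a1*, *Lama2*, *Lamb2*, *Lamc1*, *Nid1*, *Nid2* and *Hspg2*. They are 10 of the 41575 gene symbols counted in 96 bulk RNA-seq libraries of mouse tissue. The libraries covered 16 tissues of wild-type and *Scx-/-* mice, all aged 3 weeks: stomach, intestine, rectum and liver, kidney and bladder, heart and vascular, lung and spleen, bone, cartilage and muscle, cortex and hippocampus, and adipose, with 3 libraries for each tissue and genotype. *Scx* encodes scleraxis, a transcription factor of tendon and ligament progenitors, and the study asked whether its loss is felt across the organism. The sources used here do not give the origin of the knockout allele or which libraries share a mouse, so the p-values measure only the spread between libraries, which may be partly technical. All 10 members had counts, from 891 in all for *Nid2* to 18019 for *Col4a1*, and all 10 passed the filter on low counts of the fits over 96 libraries.

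A basement membrane is the thin sheet of matrix under epithelia and endothelia and around muscle, fat and nerve fibres. Laminin trimers, built from an alpha, a beta and a gamma chain, and a network of type IV collagen form its core sheets, nidogens bridge them, and perlecan adds heparan sulphate chains that hold water and growth factors. Types XV and XVIII collagen sit at its outer and inner faces and release the fragments restin and endostatin. In brain and liver such membranes are restricted mostly to vessels and surfaces, the liver sinusoid having no continuous one.

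*Col4a1* and *Col4a2* lie head to head on chromosome 8, on opposite strands, and their annotated exons share 22 bases at chr8:11312805-11312826 (GRCm38, the mm10 build). These bases are shown because the pair gave the closest match in tissue pattern of all members. The capitals mark a GC box, GGGCGG, a motif that Sp1 family factors can bind. This box lies inside the shared exon bases, after the annotated starts of both genes.

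Col4a1 and Col4a2, shared start, plus strand: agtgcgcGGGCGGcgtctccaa

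*Col18a1*, on the minus strand of chromosome 10, had the tissue pattern least like the others. The 100 bases before its first annotated start, at chr10:77166549-77166648, are shown for contrast, with the same motif in its other orientation, CCGCCC, in capitals. The gene has another promoter in the table, at a later start, which holds no match.

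Col18a1, first start, minus strand: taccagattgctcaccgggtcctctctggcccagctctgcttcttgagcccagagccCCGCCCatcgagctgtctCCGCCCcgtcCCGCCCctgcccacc

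Both sequences come from the RefSeq promoter table of GRCm38.p6. The table held 8 of the 10 members, with 9 promoters, and lacked *Lamc1* and *Nid2*. GGGCGG or CCGCCC, on either strand, was present in the 250 bases before the start in 4 of these 9 promoters, against 32.74% of the 32851 promoters in the table. The promoter of *Col4a1* held 0 matches and that of *Col4a2* held 2. The GC box marked in their shared exon bases is therefore not a promoter match common to the pair.

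Libraries held 11244 to 1658192 counts, with a median of 251640, and 8 of 96 held under 50000. One count was worth 3.97 CPM (counts over the library total, times 1000000) in a median library and 88.9 CPM in the shallowest, wild-type heart replicate 2. *Scx* had 80 counts in 12 of 48 wild-type libraries and 9 counts in 1 of 48 *Scx-/-* libraries, the library labelled cartilage *Scx-/-* replicate 1. Identity markers were present in each tissue, with *Sftpb* and *Ager* at 0 in lung and *Matn1* at 0 in cartilage, but in the adipose libraries 10 pancreatic acinar genes took 47.3% of counts in both genotypes, while 5 adipocyte genes summed to 136 CPM in wild type and 17.8 CPM in *Scx-/-*, with *Lep* at 0. In vascular, a tissue that the study left out of its later comparisons, 8 brown fat markers took 1.06% of counts for wild type against 0.551% for *Scx-/-*. In bulk RNA, fewer cells of a type and less RNA per cell cannot be told apart.

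The type IV collagen chains, which form the network common to all basement membranes, were highest in lung. *Col4a1* ranged in lung from 1215 to 2525 CPM (median 2083, 6 libraries), in bladder from 1074 to 1710 CPM and in kidney from 792 to 1325 CPM. Its lowest tissues were the brain regions, with 64.0 to 93.7 CPM in cortex and 16.9 to 163 CPM in hippocampus, so that every lung library lay above every brain library. In the fit over all 96 libraries (edgeR quasi-likelihood, 1 tissue against the mean of the other 15, with genotype as a term), *Col4a1* rose in lung by a log2 fold change of 1.93 ± 0.22 (SE, adjusted p = 1.48e-14), in bladder by 1.60 and in kidney by 1.29. It fell in hippocampus (-2.49), cortex (-2.45), intestine (-1.45) and liver (-1.42).

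*Col4a2*, whose product enters the same trimer, was also highest in lung and then bladder. Its lung values were 1073, 685 and 1523 CPM in wild type and 1017, 1671 and 1100 CPM in *Scx-/-*. The lowest of these stood above the highest bladder value of 638 CPM, a gap between neighbouring tissues found elsewhere among the members only for *Nid1*, between cortex and hippocampus. Lung did not stand apart from every tissue. Above its lowest value stood 2 heart libraries, at 694 and 712 CPM, and wild-type rectum replicate 3, at 844 CPM. The value of 712 CPM rests on 8 counts of the shallowest library. *Col4a2* also rose in bladder, heart and kidney and fell in cortex, hippocampus and adipose, where its median over 6 libraries was 25.2 CPM.

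**Figure D1:**
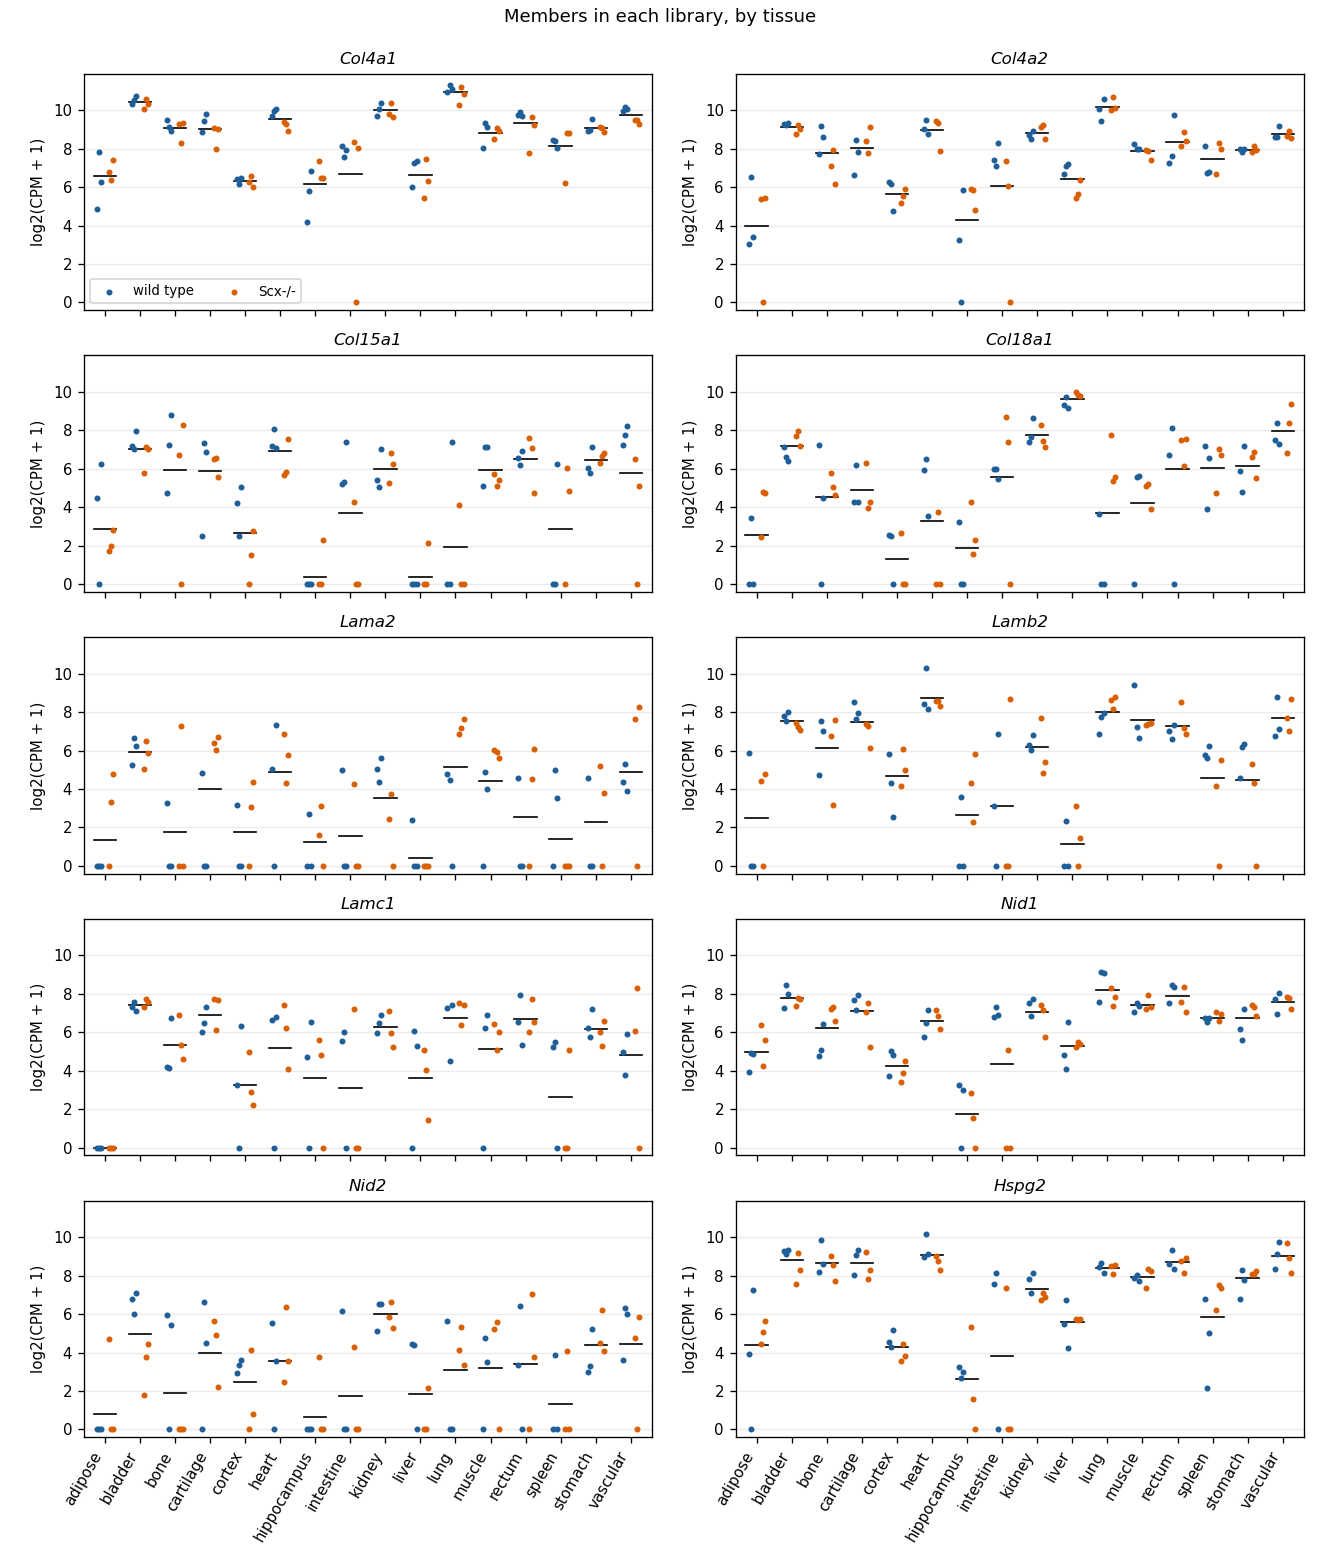
Each point is 1 library, with tissues on the x axis and log2(CPM + 1) on the y axis, wild type in blue and *Scx-/-* in orange, and black bars for the mean of 6 libraries. *Col4a1* and *Col4a2* peak in lung, *Col18a1* in liver and *Lamb2* in heart, while cortex and hippocampus are low for nearly all members.

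Among the 3 laminin chains, *Lama2* and *Lamb2* had their highest log2 fold change in heart and *Lamc1* in bladder. *Lama2*, the alpha chain of muscle and nerve laminin, was sparse, with 932 counts in 56 of 96 libraries, and by mean level its first tissue was vascular, at 95.1 ± 125 CPM (SD, n = 6). That mean rested on *Scx-/-* replicates 1 and 3, at 197 and 302 CPM, the other 4 vascular libraries holding 0 to 38.8 CPM. It rose in heart (log2 fold change 2.14), vascular (1.81), lung (1.76), muscle (1.73) and bladder (1.71), and it fell in cortex, hippocampus and liver, where 1 of 6 libraries held a count. *Lamb2*, the beta chain of laminins at synapses, in the glomerulus and in muscle, was highest in heart. Its heart values were 341, 1245 and 288 CPM in wild type and 388, 376 and 318 CPM in *Scx-/-*. The value of 1245 CPM rests on 14 counts of the shallowest library. The log2 fold change of heart was 2.53 ± 0.33 (SE, edgeR adjusted p = 1.11e-11) with that library and the other shallow ones, and 2.53 without the libraries under 50000 counts. *Lamb2* also rose in muscle (2.00), cartilage (1.64), lung (1.63), vascular (1.51) and bladder (1.26), and was near 0 in liver, at 0 to 7.81 CPM.

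*Lamc1*, the gamma chain shared by most laminins, rose in bladder (1.87), cartilage (1.79) and muscle (1.40). Its bladder values lay between 135 and 212 CPM with little spread (SD 28.2 CPM, n = 6). It had no count in any of the 6 adipose libraries, which together held 1616961 counts. A count of 0 there allows up to 1.86 CPM over the group (3 counts), so that the mean of the lowest other tissue, 19.0 CPM in spleen, was at least 10.3-fold higher. The 6 adipose libraries are those in which acinar genes took 47.3% of counts, and the part of that share in this result was not tested. With adipose at 0 among the other tissues, the *Lamc1* contrasts could not be estimated in 5 tissues. Their log2 SE, back-calculated from the test statistic, was 6.28 in intestine, 7.17 in liver, 114 in hippocampus, 1908 in cortex and 2291 in spleen. Without the adipose and vascular libraries, *Lamc1* fell in cortex (log2 fold change -1.77, edgeR adjusted p = 0.000556), spleen (-1.74, adjusted p = 0.0123) and hippocampus (-1.35, adjusted p = 0.0337), rose in bladder (1.41) and cartilage (1.32), and no longer passed in muscle (0.92, adjusted p = 0.0718).

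The nidogens, which link laminin to type IV collagen, were both widespread. *Nid1* lung values were 187, 556 and 545 CPM in wild type and 314, 167 and 224 CPM in *Scx-/-*, so that the libraries of 1 tissue differed by more than those of neighbouring tissues. *Nid1* rose in muscle (1.64), lung (1.30) and bladder (1.15), and fell in hippocampus (-5.03) and cortex (-2.35). By the mean of both genotypes, *Nid2* was led by kidney, at 33.5 to 98.2 CPM, and bladder, at 2.42 to 135 CPM. In wild type bladder averaged 103 CPM and kidney 72.2 CPM, and in *Scx-/-* they averaged 11.8 and 63.8 CPM. The exons of *Nid2* share 437 bases with those of *Rtraf* on the opposite strand. The sources used here do not say whether counting used strand, so reads of the 2 genes cannot be told apart there. The same limit holds for *Lama2* and *Nid1*, which share 631 and 143 exon bases with antisense genes. *Hspg2*, which encodes perlecan, was the most even member by the index given below. It rose in heart, vascular, cartilage, bladder, muscle and bone, by 1.20 (bone) to 1.67 (heart), and fell in hippocampus (-4.06), cortex (-3.16) and liver (-1.08).

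The multiplexins *Col15a1* and *Col18a1*, which share their domain plan, had opposite patterns in liver. *Col18a1* was 642, 848 and 572 CPM in wild-type and 1009, 912 and 886 CPM in *Scx-/-* liver, and liver held 38.0% of the summed tissue means. Its log2 fold change in liver was 4.66 ± 0.24 (SE, edgeR adjusted p = 9.04e-51), and 3.99 to 5.08 under the alternatives tried. *Col15a1* had 2 counts in liver in all, both in 1 *Scx-/-* library. It rose instead in heart (1.99), bladder (1.92), vascular (1.90), muscle (1.86), bone (1.81), stomach (1.64) and cartilage (1.50), although its bone values ran from 0 to 446 CPM and its bone call was lost without the libraries under 50000 counts (log2 fold change 0.95, adjusted p = 0.541). *Col18a1* further rose in vascular, kidney and bladder, and fell in cortex and hippocampus.

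Over the 160 pairs of member and tissue, 43 were higher and 26 lower than the mean of the other tissues (adjusted p under 0.05 and a log2 fold change beyond 1). Over all genes and tissues, 14% of tests were called higher and 2.65% lower by the same rule. With the other 90 libraries taken as 1 group, 3 pairs were higher and 19 lower. All genes moved too: their median over the tissues ran from -1.53 to -0.007 there, against -0.73 to 0.45 in the main fit. The share of all genes called in that setting is not given here. In bladder all 10 members were called higher, where 16.3% of all genes were. The median of the members there was 1.38, against 0.35 for all genes. With RLE size factors 5 of the 10 bladder calls remained, and with *Scx-/-* libraries only 5 remained, *Nid2* turning to -0.44. The bladder medians of members and of all genes were 1.07 and 0.07 with RLE factors, and 1.36 and 0.52 with *Scx-/-* libraries only. With the other 90 libraries as 1 group none of the 10 passed (adjusted p from 0.108 to 0.951, edgeR) and *Col18a1* turned to -0.25. The bladder median was then 0.91 for the members and -0.22 for all genes. In cortex 9 members were called lower, against 5.55% of all genes, and in hippocampus 9, against 6.9% of all genes. The member without a call in both was *Lamc1*, whose contrasts there were not usable with adipose at 0 and which fell in both regions without adipose and vascular, as given above. Its cortex values ran from 0 to 79.5 CPM. In muscle 6 members were called higher (14.8% of all genes), in heart 5 (9.92%), in lung 5 (12.2%), in vascular 5 (7.01%), in cartilage 4 (10.6%) and in kidney 4 (18.6%). The muscle count includes *Lamc1*, whose call there was lost without the adipose and vascular libraries. Liver had 5 members called lower, against 4.69% of all genes. No member was called in rectum, and in spleen none other than *Lamc1* without those libraries.

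Neighbouring tissues seldom separated. When the 16 tissues were ordered by mean level, the ranges of neighbours overlapped in 15 of 15 steps for 8 members and in 14 of 15 for *Col4a2* and *Nid1*. The members thus had 2 of 150 steps without overlap, against 0.82% of the steps of all genes with a mean of at least 5 CPM. The tissue specificity index tau is 0 for an even gene and 1 for a gene found in 1 tissue. Taken on log2(CPM + 1) of the tissue means, it was 0.212 for *Hspg2*, 0.222 for *Col4a1* and 0.416 for *Col18a1*. Its median was 0.396 over all 13029 genes with a mean of at least 5 CPM. On CPM, the highest over the lowest tissue mean was 56.0 for *Hspg2*, but 25.5 for *Col4a1*, 32.9 for *Nid2* and 37.3 for *Col4a2*.

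Over the 32 group means of log2(CPM + 1), *Col4a1* and *Col4a2* were each the other's nearest gene among those 13029, with a Pearson r of 0.926. *Tns1*, encoding the focal adhesion protein tensin 1, was the second nearest gene of both (r = 0.920 and 0.908). *Nid1* was nearest to *Hspg2* (r = 0.863). *Hspg2* itself was nearest to *Ppic*, a cyclophilin (r = 0.895). *Col15a1* was nearest to *Smtn*, encoding smoothelin of smooth muscle (r = 0.814), *Lamb2* to *Pmp22*, a myelin gene (r = 0.850), *Lamc1* to *Nedd4*, a ubiquitin ligase (r = 0.842), *Lama2* to *Spry1*, an inhibitor of growth factor signalling (r = 0.771), and *Nid2* to *Pyurf* (r = 0.792). *Col18a1* was nearest to *Pon3*, a liver paraoxonase (r = 0.791), and its median r with the other members was 0.299, against 0.587 to 0.774 for the others. These correlations are descriptions over groups that share tissue and depth.

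**Figure D2:**
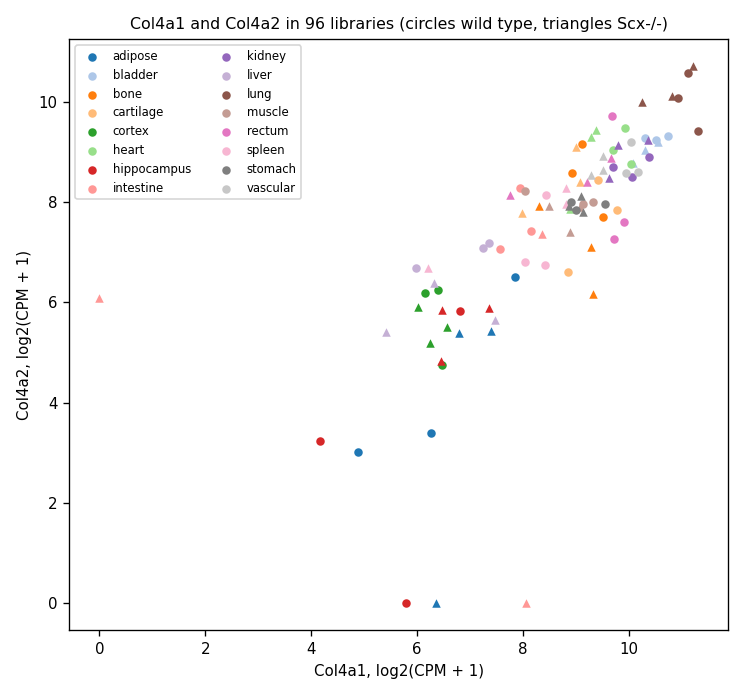
Each point is 1 of 96 libraries, with log2(CPM + 1) of *Col4a1* on the x axis and of *Col4a2* on the y axis, coloured by tissue, circles for wild type and triangles for *Scx-/-*. The points form 1 diagonal band from brain and adipose at the lower left to lung at the upper right. Libraries at 0 for 1 of the genes are of adipose, hippocampus and intestine.

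The summed level of 12 endothelial markers followed the type IV chains more closely than it followed the multiplexins. Its r over the 32 groups was 0.809 with *Col4a1* and 0.795 with *Col4a2*, against 0.272 with *Col15a1* and 0.126 with *Col18a1*. That sum was 4272 CPM in lung and at most 871 CPM in the other tissues, with *Cldn5* at 0 in lung. The sum of 10 smooth muscle and pericyte markers had an r of 0.726 with *Col15a1*, and that of 10 fibroblast markers an r of 0.803 with *Hspg2*. These pairings were not particular. *Col15a1* had an r of 0.705 with the fibroblast sum, and *Hspg2* of 0.695 with the smooth muscle and 0.698 with the endothelial sum. *Col4a1* had an r of 0.691 with the smooth muscle and 0.668 with the fibroblast sum. The endothelial sum also had an r of 0.691 with *Lamb2*, 0.663 with *Nid1* and 0.653 with *Lamc1*. The part of any of these cell types in the members' levels was not tested.

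The ratio within related pairs was compared among tissues, separately in each genotype, by a permutation test over 48 libraries on log2 of (CPM + 5), adjusted over the 6 tests. *Col15a1* over *Col18a1* differed among tissues in wild type (adjusted p = 0.00249, permutation test) and in *Scx-/-* (adjusted p = 0.00012, permutation test). The mean log2 ratio was 2.73 ± 1.55 (SD, n = 6) in heart and -7.20 ± 0.39 (SD, n = 6) in liver. Without replicate 2 of every group the wild-type difference no longer passed (adjusted p = 0.113, permutation test). *Nid2* over *Nid1* differed in *Scx-/-* (adjusted p = 0.0109, permutation test) and not detectably in wild type (adjusted p = 0.160, permutation test). The *Scx-/-* call was lost with a pseudocount of 1 CPM and without replicate 1 or 3. For *Col4a2* over *Col4a1* no difference among tissues was detectable, with adjusted p = 0.243 for wild type and 0.907 for *Scx-/-* (permutation tests), and 0.0643 for both without the libraries under 50000 counts. Its tissue means lay between -2.09 in adipose and -0.22 in liver.

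**Figure D3:**
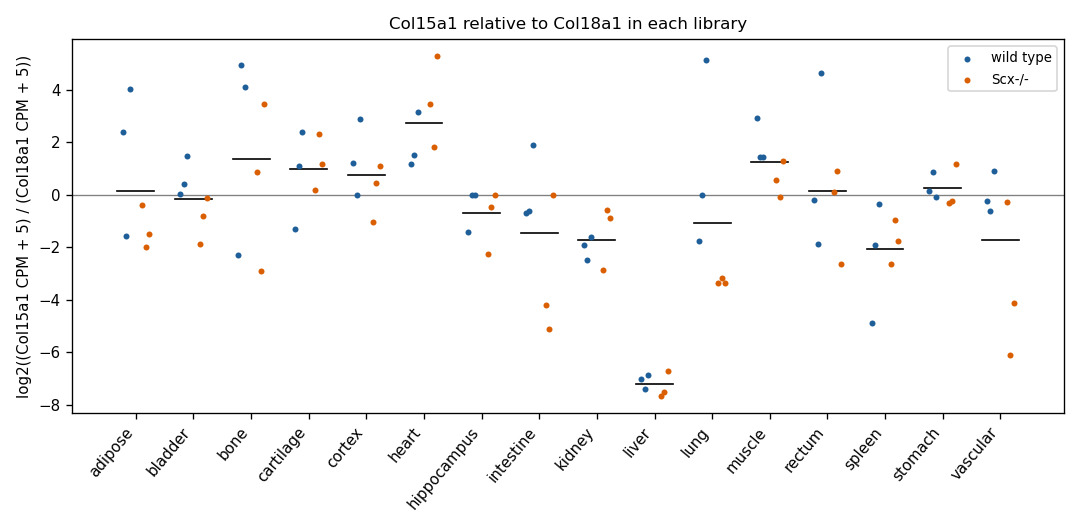
Each point is the log2 ratio of *Col15a1* to *Col18a1*, as CPM + 5, in 1 library, with tissues on the x axis, wild type in blue, *Scx-/-* in orange, and black bars for the mean of 6 libraries. All 6 liver libraries lie below -6.7 and all 6 heart libraries above 1.1.

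Between genotypes, no member was called within any tissue after adjustment over all genes. Of 159 tested pairs of member and tissue (*Lamc1* in adipose had no count), 0 had an adjusted p under 0.05 by edgeR, 8 had an unadjusted p under 0.05, and DESeq2 gave 0 and 11, with no adjusted p for 17 pairs. Over all genes and tissues, 4.01% of tests had an unadjusted p under 0.05 by edgeR and 3.54% by DESeq2. Over all genes and tissues, 0.0914% of tests were called by adjusted p. The study itself used an unadjusted p under 0.05 together with a change beyond 2-fold, and 5 pairs passed these thresholds, 2 higher and 3 lower in *Scx-/-*, against 3.71% of all tests with edgeR. With DESeq2, the tool of the study, 9 pairs passed them (3.27% of all tests), and in the joint fit of 32 groups 13 (5.47%). In 7 of 16 tissues every library of one genotype was deeper than every library of the other, among them bladder, kidney and vascular, with wild type deeper, and liver, with *Scx-/-* deeper. The part of depth in the differences there was not tested. The 95% interval of the log2 fold change had a median half-width of 1.94, so that changes of several fold in a single tissue could go unseen at this depth.

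*Nid2* in bladder had the smallest p. Its values were 109, 64.3 and 135 CPM in wild type and 2.42, 12.5 and 20.6 CPM in *Scx-/-*, from 159 and 10 counts. The 2 groups did not overlap. The log2 fold change was -3.24 (95% interval -5.02 to -1.46), with an edgeR p of 0.000368 and an adjusted p of 0.174. In bladder, 0.112% of all genes were called by adjusted p and 3.76% by the study's thresholds. It passed the adjustment only without *Scx-/-* replicate 3 (log2 fold change -3.83, adjusted p = 0.0445). The sum of 10 fibroblast markers, none at 0, was 32980 to 46890 CPM in wild-type and 19580 to 23810 CPM in *Scx-/-* bladder, and its part in this difference was not tested. *Hspg2* in bladder (log2 fold change -0.83) and in kidney (-0.93) had unadjusted p-values of 0.00795 and 0.0206 by edgeR, with overlapping groups.

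In lung, *Lama2* was 26.3, 21.4 and 0 CPM in wild type and 116, 145 and 196 CPM in *Scx-/-*, and *Col18a1* was 11.7, 0 and 0 CPM in wild type and 215, 39.6 and 46.6 CPM in *Scx-/-*. All *Scx-/-* values of both genes lay above all wild-type values. The wild-type values rest on 10 counts of *Lama2* and 4 of *Col18a1*, and a count of 0 in wild-type replicates 2 and 3 allows up to 64.2 and 56.4 CPM. The log2 fold changes were 3.14 (95% interval 0.14 to 6.14, edgeR adjusted p = 0.741) and 3.85 (0.01 to 7.69, adjusted p = 0.741), and 2.69% of all lung genes passed the study's thresholds. Neither gene passed them on library totals, with replicate number as a block (*Lama2* 3.37, *Col18a1* 4.50) or without any 1 of the *Scx-/-* replicates or wild-type replicate 3, and *Col18a1* did not without wild-type replicate 2. The *Col18a1* log2 fold change was 6.53 without wild-type replicate 1, the one with counts, and 2.79 without *Scx-/-* replicate 1, while that of *Lama2* was 4.18 without wild-type replicate 1. The sum of 10 fibroblast markers was 4328 to 6869 CPM in wild-type and 3197 to 4066 CPM in *Scx-/-* lung, and that of 8 leukocyte markers 319 to 813 CPM and 223 to 252 CPM, with *Laptm5* and *Cd79a* at 0.

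In the vascular libraries, *Col15a1* was 149, 213 and 298 CPM in wild type and 91.7, 0 and 33.5 CPM in *Scx-/-*. *Col4a1* was 981, 1158 and 1053 CPM in wild type and 727, 726 and 626 CPM in *Scx-/-*. Neither gene's groups overlapped. The log2 fold changes were -2.58 (95% interval -4.53 to -0.63) and -1.01 (-1.84 to -0.18), both with an edgeR adjusted p of 0.672. There, 4.19% of all genes passed the study's thresholds. The median gene of the vascular comparison stood at -0.51, and the *Col4a1* value was -0.62 on library totals, -0.79 with RLE factors, -0.82 with filterByExpr and -0.79 with DESeq2, none beyond 2-fold. It also stayed within 2-fold without wild-type replicate 1 (-0.93) or *Scx-/-* replicate 2 (-0.95) or 3 (-0.91). *Col15a1* moved to -3.98 without *Scx-/-* replicate 1, and without wild-type replicate 3 (-2.32) it did not pass the study's thresholds. Brown fat markers, all 8 present, summed to 7742 to 14470 CPM in wild type and 3946 to 6405 CPM in *Scx-/-* vascular libraries, and their part in these differences was not tested. In liver, *Col18a1* had a log2 fold change of 0.64 (95% interval 0.10 to 1.17, edgeR adjusted p = 0.746), with all 3 *Scx-/-* values above all 3 wild-type values.

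**Figure D4:**
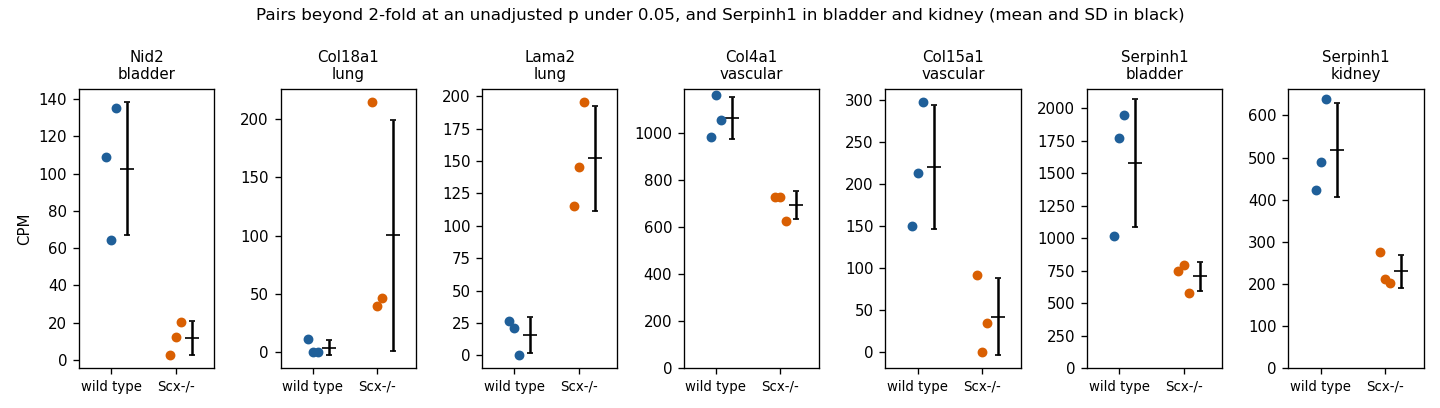
CPM in each library for the 5 member and tissue pairs past the study's thresholds with edgeR and for *Serpinh1* in bladder and kidney, wild type in blue and *Scx-/-* in orange, with the mean and SD of 3 libraries in black beside the points. In each of the 7 panels the 2 genotypes do not overlap, which choosing the panels by p-value favours. The share of all genes without overlap was not counted.

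Averaged over the 16 tissues, no member differed by genotype past the threshold either, where 0.52% of 13459 genes did. By unadjusted p under 0.05, 2 members did with edgeR and 3 with DESeq2, which also called 0 members by adjusted p and gave none for 4. Of all genes, 9.29% with edgeR and 7.43% with DESeq2 had such a p. *Col15a1* had a log2 fold change of -0.75 (95% interval -1.25 to -0.25, edgeR adjusted p = 0.177), with a lower *Scx-/-* mean in 10 of 16 tissues. The value was -0.33 without replicate 3 of every group. *Lama2* had a log2 fold change of 0.87 (0.25 to 1.50, edgeR adjusted p = 0.241), with a higher *Scx-/-* mean in 10 of 16 tissues. The other 8 members lay between -0.44 for *Nid2* and 0.28 for *Col18a1*. The narrowest interval was that of *Col4a1*, -0.42 to 0.10, with a lower *Scx-/-* mean in 13 of 16 tissues. The interaction of genotype and tissue was not called for any member by edgeR, against 0.0669% of all genes, and of the 10 only *Lama2* had an unadjusted p under 0.05 (edgeR adjusted p = 0.678), against 6.41% of all genes.

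**Figure D5:**
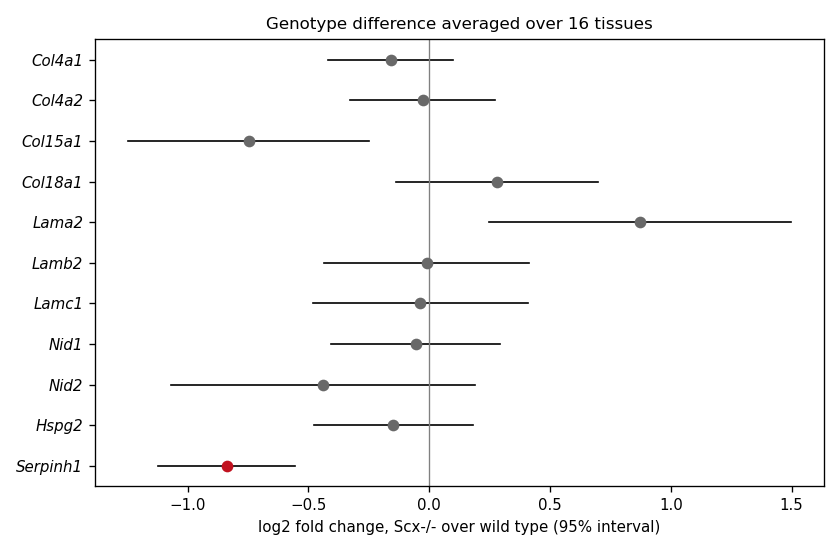
Log2 fold change of *Scx-/-* over wild type averaged over 16 tissues for the 10 members (grey) and *Serpinh1* (red), with 95% intervals from the edgeR fit on 96 libraries. The interval of *Serpinh1* lies wholly below -0.55, and of the 10 members only *Col15a1* and *Lama2* have an interval that leaves out 0.

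Other genes of the pathway were read in the same fits. None of the 4 other type IV collagen chains, 7 tested other laminin chains, 9 tested associated proteins, 11 tested receptors or 10 proteases and inhibitors was called for the genotype average. Of 9 tested genes for assembly and crosslinking of type IV collagen, 1 fell and 0 rose, where 0.201% of all genes fell, and the median of those 9 was -0.46 against 0.02 for all genes. The gene was *Serpinh1*, encoding the collagen chaperone HSP47 of the endoplasmic reticulum, which serves fibrillar collagens as well. Its log2 fold change was -0.84 (95% interval -1.12 to -0.56, edgeR adjusted p = 3.65e-05), with a lower *Scx-/-* mean in 15 of 16 tissues. Without replicate 2 or replicate 3 of every group the adjusted p was 0.0742 and 0.0521, with log2 fold changes of -0.67 and -0.74. Without the library labelled cartilage *Scx-/-* replicate 1, in which *Scx* was detected, the log2 fold change was -0.85 (edgeR adjusted p = 3.37e-05) and 0 members were called for the average or the interaction.

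Within tissues, *Serpinh1* fell in bladder, from 1015, 1772 and 1946 CPM in wild type to 744, 793 and 580 CPM in *Scx-/-* (log2 fold change -1.22, edgeR adjusted p = 0.00255), and in kidney, from 423, 490 and 640 CPM to 275, 212 and 202 CPM (-1.26, edgeR adjusted p = 0.0175). By adjusted p, 0.112% of all bladder genes, 0.195% of all kidney genes and 0.442% of all liver genes were called. The groups overlapped in neither tissue. The bladder call was lost without wild-type replicate 2 or 3 or *Scx-/-* replicate 3 (adjusted p = 0.108, 0.165 and 0.112, edgeR). The kidney call was lost without replicate 2 or 3 of either genotype (adjusted p from 0.0916 to 0.502, edgeR), with RLE factors (0.0510) and with DESeq2 (0.0687). Totals were 437302 to 587936 counts in wild-type and 243008 to 412594 in *Scx-/-* bladder, and 672218 to 1015500 against 242429 to 447350 in kidney. In the same bladder libraries, where the fibroblast markers also stood apart, *Sparc*, a matrix protein that binds collagen, fell (log2 fold change -0.91, edgeR adjusted p = 0.000579), from 7501, 10670 and 11830 CPM to 4666, 5424 and 6720 CPM. *Ecm1*, a binding partner of perlecan, rose in liver (log2 fold change 2.25, edgeR adjusted p = 0.000566), from 118, 36.7 and 35.3 CPM to 350, 121 and 364 CPM. Its groups did not overlap, with 118 CPM next to 121 CPM, and neither did the library totals, at 245271 to 481409 counts in wild type and 580110 to 768443 in *Scx-/-*. Without *Scx-/-* replicate 1 or 3 the adjusted p was 0.0558 and 0.122 (edgeR). With a filter on low counts (filterByExpr), the adjusted p-values of these 4 differences lay between 0.199 and 0.306, and in the joint fit of 32 groups between 0.838 and 1.0, at log2 fold changes close to those above.

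The 3 most abundant genes of each pathway list had their highest mean in several tissues. Of the type IV collagen chains, *Col4a4* and *Col4a3*, of the glomerular network, averaged 444 and 263 CPM in kidney, and *Col4a5* was highest in bladder at 133 CPM. *Lamb1*, the beta chain that alternates with that of *Lamb2*, was highest in lung at 191 CPM and *Lama5*, the alpha chain of epithelial and vessel laminins, also in lung at 145 CPM, while *Lama4*, the vessel alpha chain, was highest in bladder at 172 CPM. Among the associated proteins, *Sparc* was highest in bone at 21110 CPM, *Npnt*, encoding the integrin ligand nephronectin, in lung at 1466 CPM and *Fbln1*, encoding fibulin 1, in bladder at 1056 CPM. *Itgb1*, the beta chain of laminin and collagen binding integrins, was highest in bladder at 730 CPM, as was the proteoglycan *Sdc1* at 234 CPM, and *Dag1*, encoding dystroglycan, which binds the laminin of *Lama2*, in lung at 494 CPM. Of the assembly genes, *P4hb*, a subunit of prolyl hydroxylase, was highest in intestine at 2886 CPM, *Serpinh1* in bone at 1903 CPM and *Pxdn*, the peroxidase that crosslinks type IV collagen, in lung at 168 CPM. The lysosomal protease *Ctsl* was highest in liver at 819 CPM, and the metalloproteinase inhibitors *Timp2* and *Timp3* in bladder at 761 CPM and in kidney at 914 CPM.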

How the data were processed

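Bulk RNA of 16 tissues was sequenced by a multiplexed protocol (Trizol extraction, SuperScript II, Nextera XT). The deposited values are raw counts per gene symbol, which the authors made by aligning reads to mm10 with Bowtie2 at default settings and counting with HTSeq. The sources used here give no versions, annotation, strand setting or molecular identifiers. Intervals and limits cover counting error only where they come from counts, and depth sets them: libraries held 11244 to 1658192 counts.

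CPM used library totals. Within a tissue, genes at 0 in all 6 libraries were dropped. The fits over 96 libraries (additive in tissue and genotype, or 32 groups for the interaction) kept 13459 genes by filterByExpr. edgeR 4.0.16 (R 4.3.3) used TMM, robust quasi-likelihood and Benjamini-Hochberg adjustment over all genes fitted, at 0.05. Its functions were tested on simulated counts. Pair ratios used permutation tests (100000 resamples). Alternatives were RLE factors, library totals, other filters, DESeq2 1.42.0, a replicate block and left-out libraries. The study tested with DESeq2.

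The members and gene lists were chosen with earlier results of these data known. By rule, the text names all members, *Scx*, the 3 nearest genes of each member at most, from each pathway list the 3 most abundant genes and those called, and the markers of a tissue or cell type list that were at 0. Gene positions came from GENCODE M21 (GRCm38). No replicates were identical: the chi-square per degree of freedom was at least 6.93 over 96 pairs.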

Additional observations from a re-analysis of the deposited data

How the results depend on the processing

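The count of members called within tissues by adjusted p stayed 0 under RLE factors, library totals, filterByExpr, DESeq2, the joint fit of 32 groups and the replicate block, and ran from 0 to 1 when single libraries were left out. By the study's thresholds it was 5 (3.71% of all tests), and 3 on library totals (4.01%), 3 with filterByExpr (3.35%), 9 with DESeq2 (3.27%), 13 in the joint fit (5.47%), and 3 to 7 when single libraries were left out. For the genotype average and the interaction it stayed 0 throughout. The 69 calls of member and tissue became 22 with the other libraries as 1 group (chosen after seeing the data). They lay between 49 and 83 otherwise. With the other libraries as 1 group the medians of all genes were also lower, as given above. The bladder value of *Col18a1* turned to -0.25 in that setting, and that of *Nid2* to -0.44 in knockout libraries only. The causes were not tested. Same-numbered wild-type and *Scx-/-* libraries of a tissue did not vary together: their deviations from the group mean correlated at -0.14 to 0.03 over 48 pairs. This does not show whether same-numbered libraries of different tissues share a mouse. With the replicate block there were 0 calls within tissues, 69 of member and tissue, and 4 by the study's thresholds (1.39% of all tests). Those 4 were 3 of the 5 and *Lama2* in cartilage, which was not among them.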
